A study of Homo sapiens with 8 samples.

Results

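The genes described here are 10 human genes known to be imprinted, that is, expressed mainly from the copy inherited from 1 parent: DLK1, IGF2, PEG3, PEG10, MEST, NNAT, GRB10, CDKN1C, SGCE and PLAGL1. They were taken by name from a table of 35940 gene symbols, and all 10 were found and passed the filter on low values that kept 14908 genes. DLK1 was picked for its rise from 50 to 72 h, so its values at 50 and 72 h are a description and were not tested. The other 9 genes were named with earlier results of these data known.

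The cells were ESI017, an established human embryonic stem cell line with the genotype given as wild type. They were taken out of mTeSR1 stem cell medium and differentiated in N2B27, a serum-free neural medium, with SB (10 μM) and LDN (100 nM), and WNT3A protein (300 ng/mL) was added at 34 h; the labels name the aim as posterior neural fate. RNA was collected at 34, 42, 50 and 72 h, with 2 libraries at each time point, 1 from each of 2 independent replicates that the labels also number as batches. The 34 h libraries are the last before WNT3A, every group had SB and LDN, and cells kept without WNT3A beyond that time were not analysed here. Time and WNT3A therefore cannot be told apart.

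Imprinted genes carry a methylation mark, set in the egg or sperm, that silences or releases nearby genes on 1 parental chromosome. Many of them set fetal and placental growth, and several are strongly expressed in the developing brain. In the human, DLK1, IGF2, PEG3, PEG10, MEST, NNAT, SGCE and PLAGL1 are known as paternally expressed, CDKN1C as maternally expressed, and GRB10 as expressed from either or both copies depending on tissue and isoform. The deposited values are TPM (a share of all transcripts, scaled by transcript length to a fixed total) summed over both parental copies, so they say nothing of which copy was read. The cells were measured in bulk, where more cells of a type and more RNA per cell cannot be told apart.

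Spearman correlations over tested genes were 0.980 to 0.984 between libraries of a time point and 0.933 to 0.982 between time points, so the ranges overlapped. The number of genes at 1 TPM or more was 13860 to 14004 per library, and depth is unknown because TPM keeps no read number. Of 6 pluripotency markers, TDGF1 went from a mean of 764 TPM at 34 h to 4.54 TPM at 72 h, POU5F1 from 1159 to 371 TPM and NANOG from 2.03 to 0.682 TPM, while LIN28A, SOX2 and PRDM14 were higher at 72 h. Their sum was 3070 TPM in both 34 h libraries and 1720 to 1810 TPM at 72 h. The sum of 6 neural progenitor markers was 215 to 224 TPM at 34 h and 412 to 447 TPM at 72 h. The sum of 6 mesoderm markers was 5.61 to 6.76 TPM at 34 h and 10.9 to 15.9 TPM at 42 h. It was 12.0 to 14.3 TPM at 50 h and 6.25 to 6.74 TPM at 72 h, so it was highest at 42 and 50 h. Within it TBXT had means of 0.994, 9.65, 8.23 and 1.74 TPM at 34, 42, 50 and 72 h. Imprinted genes were called against 34 h at 42, 50 and 72 h. Between 34 and 72 h the sum of 6 endoderm markers went from 16.7 to 16.9 TPM down to 1.21 to 2.01 TPM. That of 6 trophoblast markers went from 49.8 to 53.0 TPM down to 13.5 to 14.2 TPM. Of these 6, KRT7 went from a mean of 37.8 to 6.22 TPM and TFAP2C from 13.2 to 7.60 TPM. CGA, GATA3, HAND1 and TFAP2A were below 1 TPM in every library. The sum of 5 neural crest markers was 6.94 to 8.05 TPM at 34 h, 3.98 to 5.34 at 42 h, 2.97 to 4.23 at 50 h and 7.11 to 7.23 TPM at 72 h. Within it FOXD3 went from 4.65 and 4.48 TPM at 34 h to 0 in both 72 h libraries, and PAX3 from 0.269 and 0 TPM to 4.81 and 4.24 TPM. SOX17 and MSGN1 were listed at 0 in every library. The part of these markers in the results was not tested.

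The calls within the group were all upward. Genes were called at an adjusted p under 0.05 from limma, a linear model fitted over all tested genes. At 42 h against 34 h, 1 of the 10 was raised and none was lowered, where 1.78% of all tested genes were raised and 0.792% lowered (2.58% in either direction). The counts that follow leave out DLK1. At 50 h against 34 h 4 of 9 were raised and none lowered, where 3.52% of all tested genes were raised and 2.74% lowered (6.26% in all). At 72 h against 34 h 6 of 9 were raised and none lowered, where 12.7% of all tested genes were raised and 11.3% lowered (24.0% in all). That count was 5, without SGCE, with a pseudocount of 0.1, without the filter and after TMM rescaling. It was also 5, again without SGCE, when mitochondrial genes were left out and with Ensembl rows kept apart. From 50 to 72 h 1 of 9 was raised and none lowered, where 2.92% of all tested genes were raised and 4.41% lowered (7.33% in all). Between 42 and 50 h 0 of 9 were called by limma, where 0.0604% of all tested genes were raised and 0.0335% lowered (0.0939% in all). At an unadjusted p under 0.05 there were 3 of 9, where 9.35% of all tested genes had such a p. The count of 4 at 50 h fell to 2 without any 1 of the 8 libraries, leaving NNAT and PLAGL1. With the replicate number as a block 2 of 10 were raised at 42 h, and without replicate 1 at 50 h 2 of 9 were raised from 50 to 72 h. The median change of the 9 genes at 72 h against 34 h was 0.70 on the log2(TPM + 1) scale used for all changes here, beside 0.06 over all tested genes. The comparisons with 34 h share the 34 h libraries and are not independent of each other.

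**Figure D1:**
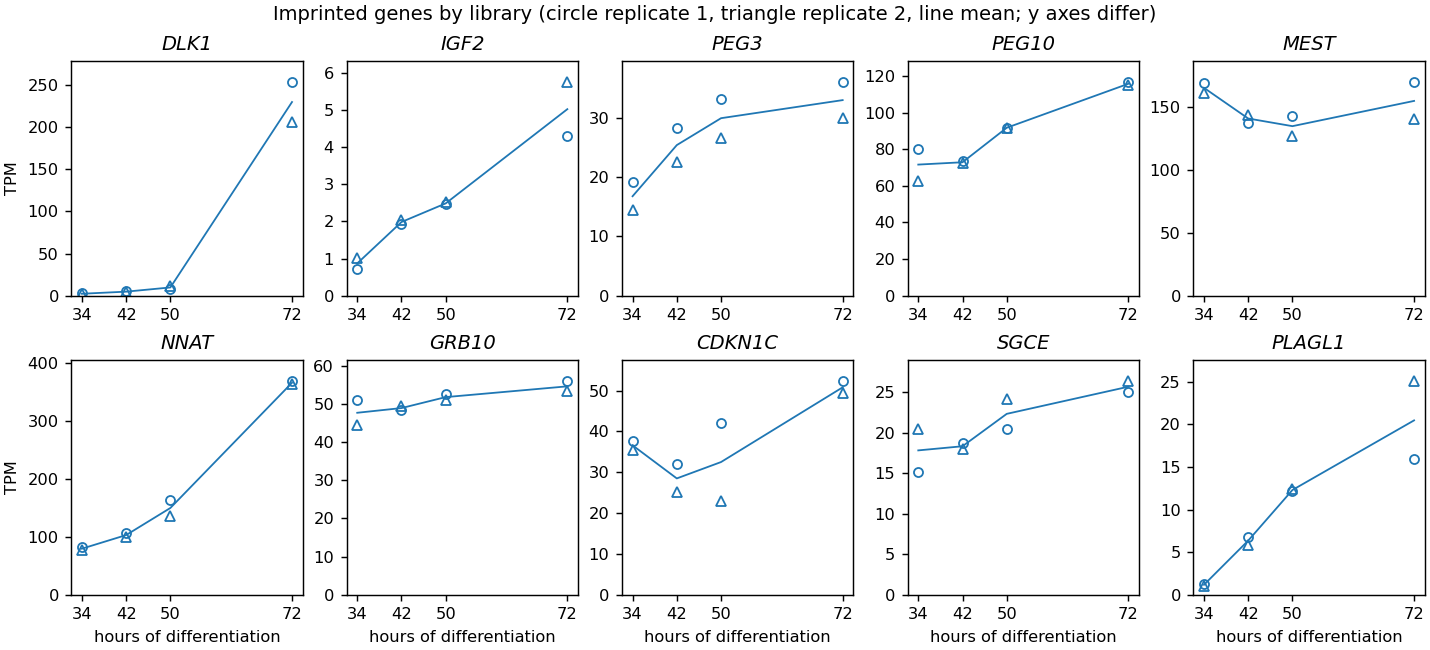
Level in TPM (y axes, which differ between panels and start at 0) of the 10 imprinted genes against hours of differentiation (x axes). Circles are replicate 1, triangles replicate 2 and lines the mean; DLK1 stays at or below 11.2 TPM until 50 h and lies at 253 and 206 TPM at 72 h, whereas GRB10 lies between 44.3 and 55.9 TPM throughout.

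DLK1 encodes a membrane protein with epidermal growth factor-like repeats, a relative of the Notch ligands that is made by many progenitor cells and marks undifferentiated preadipocytes. It lies on chromosome 14, 100725705 to 100738224, plus strand. It had 3.08 and 1.66 TPM in replicates 1 and 2 at 34 h, 5.27 and 4.43 at 42 h, 8.44 and 11.2 at 50 h, then 253 and 206 TPM at 72 h. Each time point lay above all libraries of the time before it, and the step to 72 h was by far the widest. The mean went from 9.83 ± 1.96 to 229 ± 32.9 TPM (SD, n = 2) between 50 and 72 h, a ratio of 23.3, with log2 changes of 4.75 and 4.08 within the replicates. Of the changes of DLK1, the 1 that its choice did not use is 42 h against 34 h, which was 0.83 ± 0.23 (SE) and did not pass the threshold (limma adjusted p 0.142).

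DLK1 moved from the eighth place among the 10 genes at 34 h to the second at 72 h. At 34 h the order of mean TPM was MEST (165.5), NNAT (79.3), PEG10 (71.6), GRB10 (47.6), CDKN1C (36.6), SGCE (17.8), PEG3 (16.8), DLK1 (2.37), PLAGL1 (1.165) and IGF2 (0.870). Of neighbours in that order, the libraries of NNAT and PEG10 and those of SGCE and PEG3 overlapped. At 72 h the order was NNAT (365), DLK1 (229), MEST (155), PEG10 (116), GRB10 (54.6), CDKN1C (50.8), PEG3 (33.0), SGCE (25.7), PLAGL1 (20.5) and IGF2 (5.02), and SGCE and PLAGL1 were the neighbours whose libraries overlapped. Without DLK1 the other 9 genes together held 417.5 to 457.1 TPM at 34 h and 808.3 to 843.2 TPM at 72 h, and without NNAT as well the sums were 340.7 to 375.2 and 445.3 to 475.6 TPM.

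The domain of DLK1 holds other imprinted genes. RTL1, a retrotransposon-derived gene that is paternally expressed like DLK1 and needed in the placenta, lies at 100879753 to 100903722 on chromosome 14, minus strand. It had 0.0874 and 0.0487 TPM at 34 h, 0.0159 and 0.0135 at 42 h, 0.0745 and 0.184 at 50 h, then 2.53 and 1.27 TPM at 72 h, so the 72 h libraries stood above all others. RTL1 passed the filter only through its 72 h libraries, so it had to differ there, and its change of 1.41 from 34 to 72 h is given without a test. DIO3, which inactivates thyroid hormone and lies at 101561351 to 101563452, was below the filter throughout, with 0.631 and 0.550 TPM at 72 h and at most 0.186 TPM in any earlier library. The noncoding genes of the domain, among them MEG3, were not analysed here.

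The 5 genes with a course most like DLK1, ranked by Pearson correlation of log2(TPM + 1) over the 8 libraries among 2301 genes whose time point means spanned at least 1, were RGL1 (0.997), LIX1L (0.995), PAX3 (0.994), EPHA4 (0.993) and SLC29A4 (0.991). These values share the 4 time points and are a description with no test. EPHA4, an ephrin receptor, had 5.93 to 14.4 TPM in the 6 libraries up to 50 h and 107 and 103 TPM at 72 h. PAX3, a dorsal neural tube and neural crest factor, had at most 0.729 TPM up to 50 h and 4.81 and 4.24 TPM at 72 h. Like RTL1 it passed the filter only through its 72 h libraries, so it had to differ there. Among the imprinted genes, NNAT had the highest correlation with DLK1 (0.982), and MEST the lowest (0.048).

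NNAT encodes neuronatin, a small membrane protein of the endoplasmic reticulum that is abundant in the developing brain. It lies on chromosome 20, 37521206 to 37523693, plus strand, inside the span of BLCAP on the opposite strand. Its libraries held 81.9 and 76.8 TPM at 34 h, 107 and 98.8 at 42 h, 163 and 136 at 50 h, then 368 and 363 TPM at 72 h. No library overlapped with those of another time point, and each time point was above the one before. NNAT rose by 0.90 ± 0.10 at 50 h (limma adjusted p 0.00190) and by 2.19 ± 0.10 at 72 h (7.58e-06), both against 34 h, and its 72 h change was 2.15 in replicate 1 and 2.23 in replicate 2. It was the 1 gene of the 9 called between 50 and 72 h (1.29 ± 0.10, limma adjusted p 0.000426). All 3 of these calls were kept in each of the 15 alternatives tried. BLCAP, whose reads cannot be told apart from those of NNAT where they overlap unless strand was used, had 31.3 to 38.5 TPM in all libraries and was not called at any time.

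PLAGL1, a zinc finger transcription factor known to restrain proliferation and to act on other imprinted genes, was the 1 gene of the 10 called 8 h after WNT3A. It lies on chromosome 6, 143940300 to 144064599, minus strand. It had 1.28 and 1.05 TPM at 34 h, 6.83 and 5.88 at 42 h, 12.1 and 12.5 at 50 h, then 15.9 and 25.0 TPM at 72 h. The time points did not overlap, and the replicates lay farthest apart at 72 h. PLAGL1 rose by 1.76 ± 0.22 at 42 h (1.78 and 1.74 within the replicates, limma adjusted p 0.00446), by 2.62 ± 0.22 at 50 h (0.000365) and by 3.28 ± 0.22 at 72 h (3.41e-05) against 34 h. In TPM the means at 42, 50 and 72 h were 5.45, 10.6 and 17.6 times that at 34 h. Each of these calls was kept in all 15 alternatives, and the steps from 42 to 50 h and from 50 to 72 h did not pass (0.262 and 0.120).

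PLAGL1 has several transcript starts, and its imprint is known to lie at a CpG-rich internal one. RefSeq (GRCh38.p14) lists 5 starts, which the gene-level TPM adds together, and the 250 bases before each held 21, 1, 32, 3 and 1 CG dinucleotides from the outermost start inward. The median over all 35116 such windows of the table was 11. The outermost and the CG-richest window are shown, read 5′ to 3′ on the minus strand with CG in capitals, since the gene-level rise cannot be assigned to a start. The second is cut to its outer 79 bases, which lie outside every exon of the annotation, hold 9 of the 32 CG dinucleotides, and end 171 bases before the edge of the window at the start.
PLAGL1 outermost start, chr6:144064600-144064849: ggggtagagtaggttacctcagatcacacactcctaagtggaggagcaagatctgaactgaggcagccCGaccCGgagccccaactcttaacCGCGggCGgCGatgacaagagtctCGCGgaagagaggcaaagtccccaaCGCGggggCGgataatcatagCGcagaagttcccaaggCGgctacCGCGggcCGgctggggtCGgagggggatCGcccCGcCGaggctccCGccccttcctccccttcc
PLAGL1 internal start, outer part of the window, chr6:144008431-144008509: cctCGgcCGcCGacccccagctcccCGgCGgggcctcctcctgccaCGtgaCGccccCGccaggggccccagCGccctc

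The windows were searched for the core of the TCF/LEF site, through which WNT acts on its targets, as CTTTGAT or CTTTGAA on both strands. None of the 5 PLAGL1 windows held it, and of the 15 windows of the 3 imprinted genes that matched the table (PLAGL1, GRB10 and MEST) 1 did, at a MEST start. Of all windows 5.9% held it. A match is a run of letters and not a site in use. At that share, finding none in 5 windows was the likely outcome, and sequence outside the windows was not searched. The lack of a match in PLAGL1 therefore decides nothing.

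IGF2, a fetal growth factor that signals through the IGF1 and insulin receptors, was the lowest of the 10 genes. It lies on chromosome 11, 2129112 to 2149603, minus strand. It had 0.725 and 1.02 TPM at 34 h, 1.93 and 2.04 at 42 h, 2.46 and 2.51 at 50 h, then 4.30 and 5.74 TPM at 72 h, with no overlap between time points. IGF2 rose by 1.68 ± 0.22 at 72 h against 34 h (1.62 and 1.74 within the replicates, limma adjusted p 0.00114), a call kept in all 15 alternatives. At 50 h the rise of 0.90 passed by little (0.0489), and it was lost with the replicate block (0.0559), after TMM rescaling (0.0554), and without any 1 of the 8 libraries (0.0676 to 0.194). The readthrough gene INS-IGF2, whose span overlaps that of IGF2, was listed at 0 in every library.

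The genes around IGF2 signalling were taken as a list of 17, of which 14 were tested. At 72 h against 34 h 2 of them were raised, 4 were lowered and 8 were not called, with a list median of 0.10 beside 0.06 over all tested genes, where 12.7% were raised and 11.3% lowered. At 50 h 1 was raised and 3 were lowered, where 3.52% of all tested genes were raised and 2.74% lowered. Without replicate 1 at 34 h 1 of those 3, IGFBP3, kept its call, and that of IGFBP4 was lost in 8 of 15 alternatives (adjusted p up to 0.168). IGFBP5, a secreted carrier of IGFs, had 58.7 and 55.8 TPM at 34 h, 59.1 and 52.9 at 42 h, 126 and 101 at 50 h, then 490 and 456 TPM at 72 h. It rose by 3.03 ± 0.12 at 72 h against 34 h (limma adjusted p 4.49e-06). IGFBP3, the main IGF carrier of blood, went the other way, with 64.7 and 60.3 TPM at 34 h, 26.7 and 30.1 at 42 h, 16.1 and 21.0 at 50 h, then 3.04 and 5.00 TPM at 72 h. Its fall was -1.71 ± 0.21 at 50 h (limma adjusted p 0.00230) and -3.69 ± 0.21 at 72 h (1.51e-05). IGFBP4 and IGFBP6 were also lowered at 72 h, by -0.95 ± 0.13 (0.00128) and -1.63 ± 0.22 (0.00129). These 72 h calls were kept in all 15 alternatives.

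IGF1R, the main signalling receptor of IGF2, had 21.1 to 31.5 TPM over the libraries and was not called at 72 h (0.18 ± 0.20, limma adjusted p 0.556). IGF2R, a receptor that clears IGF2 and is imprinted in the mouse, was counted in the list of other imprinted genes and had 52.3 and 49.4 TPM at 34 h, then 40.9 and 38.2 TPM at 72 h. Its change of -0.36 ± 0.10 passed (limma adjusted p 0.0363) but was lost in 7 of 15 alternatives. Those were the compared time points alone (0.0604) and the fits without replicate 1 or 2 at 34 h (0.152 and 0.0939), at 42 h (0.0544 and 0.0543) or at 72 h (0.0925 and 0.171). Among the IGF2 mRNA-binding proteins, IGF2BP1 had 118 to 156 TPM throughout and was not called at any time. IGF2BP2 passed as raised from 34 to 72 h (0.50 ± 0.11, limma adjusted p 0.0152), and this was lost without replicate 2 at 34 h (0.0923) or replicate 1 or 2 at 72 h (0.0984 and 0.0509). IGF2BP3 was lowered at 50 h (-0.63 ± 0.11, limma adjusted p 0.0117) and 72 h (-0.47 ± 0.11, 0.0154). Its 50 h call was lost without replicate 1 or 2 at 34 h (0.0721 and 0.0789) or replicate 1 at 50 h (0.0694), and its 72 h call without replicate 1 or 2 at 34 h (0.0687 and 0.0732) or replicate 2 at 72 h (0.104). IGF1 was at most 0.0118 TPM in a library.

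**Figure D2:**
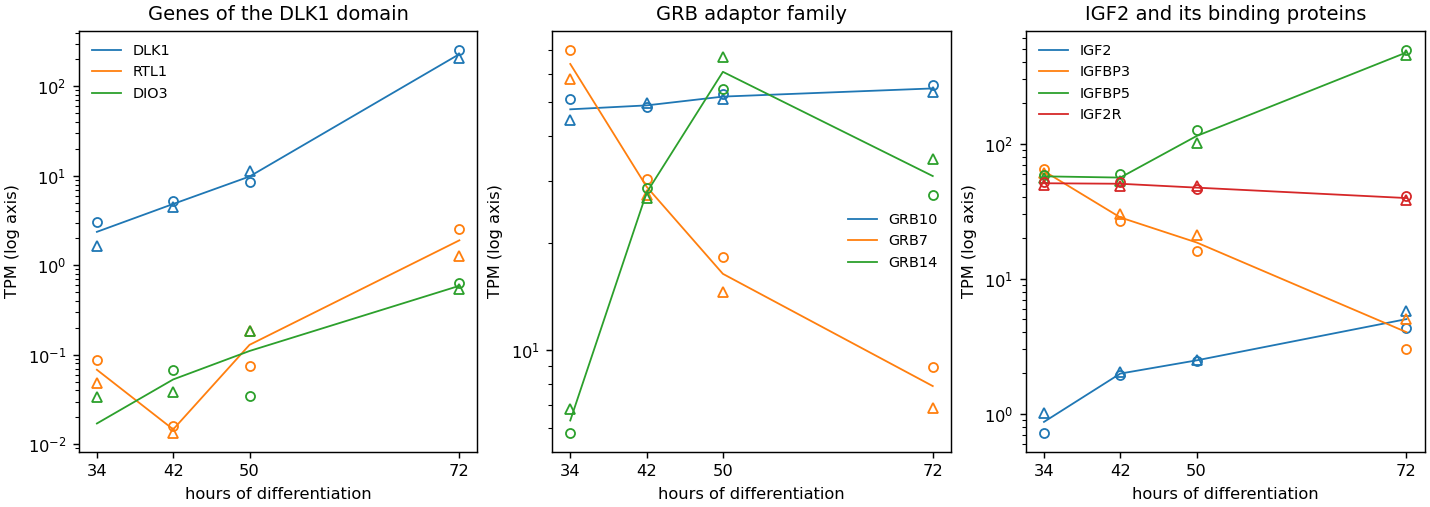
Level in TPM (log axes) against hours of differentiation for genes of the DLK1 domain, the GRB adaptor family, and IGF2 with its binding proteins and clearance receptor; circles are replicate 1, triangles replicate 2, lines the mean, and the DIO3 value of replicate 1 at 34 h, listed at 0, is not drawn. IGFBP5 climbs to 490 and 456 TPM at 72 h while IGFBP3 drops to 3.04 and 5.00 TPM, and GRB10 stays between 44.3 and 55.9 TPM while GRB7 falls and GRB14 peaks at 50 h.

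GRB10, an adaptor protein that binds the insulin and IGF1 receptors and damps their signal, was not called in any comparison. Its position is chromosome 7, 50590063 to 50793462, minus strand. Its libraries held 51.0 and 44.3 TPM at 34 h, 48.2 and 49.5 at 42 h, 52.6 and 50.9 at 50 h, then 55.9 and 53.3 TPM at 72 h. The 34 and 42 h libraries overlapped, and the change at 72 h against 34 h was 0.20 ± 0.11 (limma adjusted p 0.218). Its relatives moved in opposite directions against 34 h. GRB7 had 69.9 and 58.0 TPM at 34 h, 30.4 and 27.3 at 42 h, 18.2 and 14.5 at 50 h, then 8.96 and 6.84 TPM at 72 h, and was lowered at 50 h (-1.91 ± 0.17, 0.000540) and 72 h (-2.87 ± 0.17, limma adjusted p 2.11e-05). GRB14 had 5.84 and 6.79 TPM at 34 h, 28.6 and 26.9 at 42 h, 54.5 and 67.1 at 50 h, then 27.2 and 34.5 TPM at 72 h. It was raised at 42 h (1.98 ± 0.16, limma adjusted p 0.000546), 50 h (3.07 ± 0.16, 4.56e-05) and 72 h (2.12 ± 0.16, 6.85e-05). These calls were kept in all 15 alternatives. The change of GRB7 at 42 h (-1.12 ± 0.17, limma adjusted p 0.0138) was lost in 5 of 15, without the filter (0.0502) and without replicate 1 or 2 at 34 h (0.114 and 0.0538) or 42 h (0.0677 and 0.111). From 50 to 72 h both were lowered, GRB7 by -0.97 ± 0.17 (limma adjusted p 0.0147) and GRB14 by -0.96 ± 0.16 (0.0109). The GRB7 call was lost with the compared time points alone (0.0849) and without replicate 1 at 50 h (0.0722) or replicate 2 at 72 h (0.0950). The GRB14 call was lost with the compared time points alone (0.0657) and without replicate 2 at 50 h (0.0710) or replicate 1 at 72 h (0.0931).

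PEG3, a zinc finger protein, lies on chromosome 19, 56810077 to 56840728, minus strand. It had 19.2 and 14.4 TPM at 34 h, 28.3 and 22.6 at 42 h, 33.2 and 26.7 at 50 h, then 36.0 and 30.0 TPM at 72 h. Replicate 1 was above replicate 2 at every time point, and all libraries from 42 h on were above both 34 h libraries. PEG3 rose by 0.94 ± 0.19 at 72 h against 34 h (limma adjusted p 0.00896), a call lost without replicate 2 at 34 h (0.0631) or replicate 1 at 72 h (0.0702). Its rise of 0.80 ± 0.19 at 50 h (0.0451) was lost without any 1 of the 8 libraries (0.0563 to 0.247) and kept with the replicate block. At 42 h its change of 0.58 ± 0.19 did not pass (0.214), but did with the replicate number as a block (0.0454). ZIM2, which shares the start of PEG3, had at most 0.841 TPM in a library.

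PEG10, a retrotransposon-derived gene whose protein forms capsids, and SGCE, which encodes epsilon-sarcoglycan, a membrane protein linked to the dystrophin complex, lie head to head on chromosome 7. Their annotated spans overlap, at 94656325 to 94669695 on the plus strand for PEG10 and 94524204 to 94656572 on the minus strand for SGCE. PEG10 had 80.3 and 62.8 TPM at 34 h, 73.3 and 72.4 at 42 h, 91.8 and 91.6 at 50 h, then 116 and 115 TPM at 72 h. SGCE had 15.2 and 20.4 TPM at 34 h, 18.7 and 18.0 at 42 h, 20.5 and 24.2 at 50 h, then 25.0 and 26.3 TPM at 72 h. For both genes the 34 and 42 h libraries overlapped and the 72 h libraries were above all others. PEG10 rose by 0.70 ± 0.12 at 72 h against 34 h (limma adjusted p 0.00443), a call kept in all 15 alternatives. SGCE rose by 0.52 ± 0.16 (0.0493), and that call was lost in 13 of 15 alternatives, among them TMM rescaling (0.0735) and the fits without any 1 library other than replicate 2 at 34 h (0.0518 to 0.238).

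CDKN1C, the maternally expressed gene of the group, encodes an inhibitor of cyclin-dependent kinases. The gene lies on chromosome 11, 2883213 to 2885773, minus strand. The table holds it in 2 Ensembl rows, of which ENSG00000273707 has no position in the annotation used, and their TPM were summed. The sums were 37.8 and 35.4 TPM at 34 h, 31.9 and 25.1 at 42 h, 42.1 and 22.9 at 50 h, then 52.3 and 49.4 TPM at 72 h. The 50 h replicates lay far apart, 1 above and 1 below both 34 h libraries, while the 72 h libraries were above all others. CDKN1C was not called at 72 h against 34 h (0.46 ± 0.25, limma adjusted p 0.217) or against 50 h (0.69 ± 0.25, 0.149). The first of these passed with the compared time points alone (0.0314) and without replicate 1 or 2 at 50 h (0.0480 and 0.0465), and the other without replicate 1 at 50 h (0.0162, change 1.12).

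MEST, a protein of the hydrolase fold family expressed in embryonic mesoderm and brain, was the highest of the 10 genes at 34 h and was not called in any comparison. Its position is chromosome 7, 130486171 to 130506465, plus strand. It had 170 and 161 TPM at 34 h, 138 and 144 at 42 h, 143 and 127 at 50 h, then 170 and 140 TPM at 72 h. The 72 h libraries overlapped with those at 34 h, and the change was -0.10 ± 0.11 (limma adjusted p 0.567). COPG2, a coat protein gene whose end overlaps that of MEST on the opposite strand, went from 40.0 and 38.9 TPM at 34 h to 61.4 and 57.2 TPM at 72 h (0.58 ± 0.10, limma adjusted p 0.00437), a call kept in all 15 alternatives. Like PLAGL1, MEST and GRB10 are known to carry their imprint at an internal start. The 250 bases before an internal MEST start and an internal GRB10 start are shown, with CG in capitals, to set these uncalled genes beside PLAGL1. They held 16 and 19 CG dinucleotides. From the outermost start inward, the MEST windows held 9, 20, 11, 16 and 20 of them. The GRB10 windows held 37, 40, 19, 2 and 3.
MEST internal start, plus strand, chr7:130491808-130492057: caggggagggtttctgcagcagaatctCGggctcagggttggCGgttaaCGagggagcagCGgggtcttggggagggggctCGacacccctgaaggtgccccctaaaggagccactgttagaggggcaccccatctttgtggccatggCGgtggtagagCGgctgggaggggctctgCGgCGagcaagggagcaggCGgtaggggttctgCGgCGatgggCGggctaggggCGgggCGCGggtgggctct
GRB10 internal start, minus strand, chr7:50782897-50783146: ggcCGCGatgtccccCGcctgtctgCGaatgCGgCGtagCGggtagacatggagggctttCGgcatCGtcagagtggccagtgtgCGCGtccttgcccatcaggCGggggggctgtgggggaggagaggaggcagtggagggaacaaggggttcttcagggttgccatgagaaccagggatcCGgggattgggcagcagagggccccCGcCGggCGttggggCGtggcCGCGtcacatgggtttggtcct

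**Figure D3:**
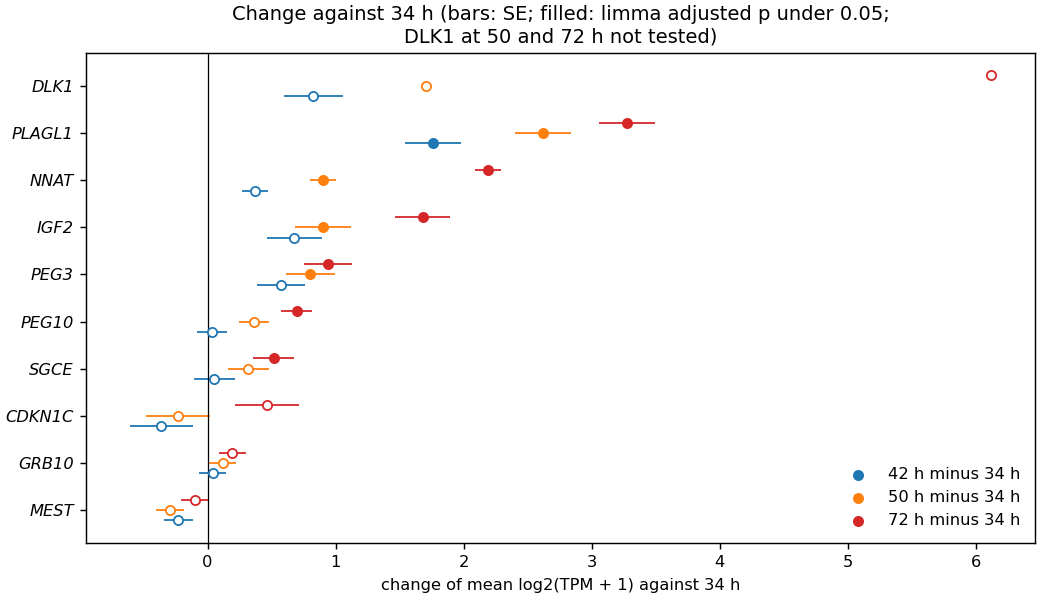
Change of mean log2(TPM + 1) (x axis) of each imprinted gene at 42, 50 and 72 h against 34 h, with SE bars; filled points passed limma's adjusted p under 0.05, and the open DLK1 points at 50 and 72 h were not tested. PLAGL1 is filled at all 3 times, NNAT, IGF2 and PEG3 from 50 h, and PEG10 and SGCE at 72 h; GRB10, CDKN1C and MEST are open throughout.

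Imprinted genes outside the group were described from 2 lists. Of 25 genes lying beside the 10, 16 were in the table and 8 were tested. Without RTL1, 1 of the other 7 was raised at 72 h against 34 h (COPG2), 1 was lowered (TFPI2) and 5 were not called, with a median of 0.15, beside 0.06 over all tested genes, of which 12.7% were raised and 11.3% lowered. Of 20 imprinted genes from other domains 16 were tested, of which 3 were raised (GNAS, NDN and ZDBF2), 3 were lowered (SNRPN, NLRP2 and IGF2R) and 10 were not called, with a median of 0.09, beside the same shares and median over all tested genes. SNRPN, a splicing factor gene of the Prader-Willi region, had 690 and 635 TPM at 34 h, then 428 and 449 TPM at 72 h (-0.59 ± 0.09, limma adjusted p 0.00225). The calls of COPG2, SNRPN and NLRP2 were kept in all alternatives. Those of TFPI2, GNAS, NDN, ZDBF2 and IGF2R were each lost without at least 1 library. Of the 3 raised genes from other domains, 0 kept their call without replicate 2 at 34 h or replicate 1 at 72 h, and 1 without replicate 1 at 34 h (GNAS) or replicate 2 at 72 h (ZDBF2).

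The enzymes and factors that set, copy, remove or guard DNA methylation, among them those that maintain imprints, were a list of 14, of which 12 were tested. At 72 h against 34 h 3 were raised (UHRF1, DNMT1 and TET3), 2 were lowered (DNMT3B and ZFP57) and 7 were not called, with a median of 0.21, where 12.7% of all tested genes were raised and 11.3% lowered and their median was 0.06. UHRF1, which guides the maintenance methyltransferase to newly copied DNA, had 49.2 and 37.5 TPM at 34 h, then 96.9 and 85.8 TPM at 72 h (1.07 ± 0.17, limma adjusted p 0.00305). DNMT1, that methyltransferase, had 111 and 98.9 TPM and then 161 and 142 TPM (0.53 ± 0.12, 0.0178), a call lost without replicate 2 at 34 h (0.107) or replicate 1 at 72 h (0.116). DNMT3B, which sets new methylation, was lowered from 558 and 452 TPM to 207 and 216 TPM (-1.24 ± 0.11, limma adjusted p 0.000156). ZFP57, a zinc finger protein that guards imprints, was lowered from 4.71 and 5.37 TPM to 1.91 and 0.757 TPM (-1.42 ± 0.29, 0.0105). That call of ZFP57 was lost with its Ensembl rows apart, where the change was -0.41 (limma adjusted p 0.455). It was also lost without replicate 2 at 34 h (change -1.34) or without replicate 2 at 72 h (change -1.05). TET3, an enzyme that oxidises methylated cytosine, had 11.6 and 9.35 TPM at 34 h, then 14.99 and 14.97 TPM at 72 h (0.48 ± 0.14, limma adjusted p 0.0426), a call lost in 10 of 15 alternatives, among them the fits without any 1 library other than replicate 1 at 34 h (0.0536 to 0.217). TRIM28, the partner of ZFP57, had 983 to 1266 TPM in all libraries and was not called at 72 h (0.200).

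The paralogs and partners of the group were a list of 20, of which 16 were tested, and at 72 h against 34 h 9 were raised, 1 was lowered and 6 were not called, with a median of 0.41. Of all tested genes 12.7% were raised and 11.3% lowered, and their median was 0.06. Of the 9 raised genes 5 and 4 kept their call without replicate 1 and 2 at 34 h, and 3 and 2 without replicate 1 and 2 at 72 h. GRB14 and NOTCH3 were kept in each of these fits. GRB7 was the lowered gene, and 3 of the 10 calls of the list were kept in all 15 alternatives. NOTCH3, a receptor of the family DLK1 acts on, had 36.3 and 24.6 TPM at 34 h, then 74.2 and 80.1 TPM at 72 h (1.34 ± 0.19, limma adjusted p 0.00169). DLK2, the paralog of DLK1, had 0.511 to 1.95 TPM in all libraries. Over the 5 lists without RTL1, 29 of 65 tested genes were called at 72 h against 34 h (18 raised, 11 lowered), where 24.0% of all tested genes were called, and 12 of the 29 calls were kept in all 15 alternatives.

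**Figure D4:**
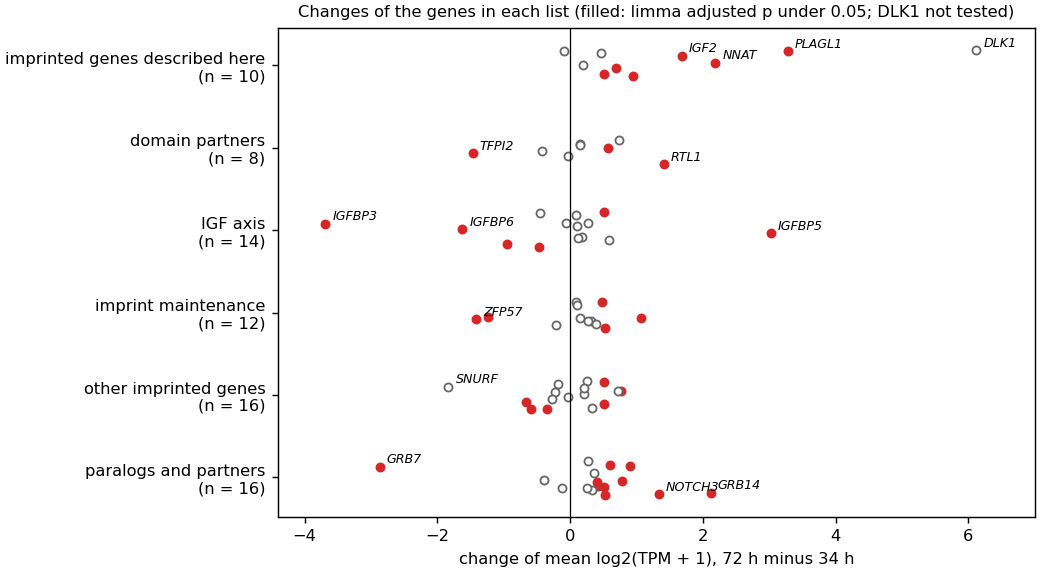
Change of mean log2(TPM + 1) at 72 h against 34 h (x axis) for the 10 imprinted genes and the tested genes of the 5 lists (rows, with their number; vertical scatter within a row has no meaning). Filled points passed limma's adjusted p under 0.05; among the imprinted genes every filled point lies to the right of 0, whereas the IGF axis has filled points on both sides, and the filled RTL1 point in the row of domain partners was fixed by the filter.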

How the data were processed

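Poly(A) RNA of 8 libraries was sequenced as paired ends, per the labels' protocols. The authors deposited TPM, with 1 row per Ensembl identifier. The submitters' processing notes name Salmon 1.9.0 and GRCh38; the annotation, the filters and strandedness are not given in the sources used here. No column of values was left out, and 37951 rows were summed into 35940 symbols.

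The test covered 14908 genes, those reaching 1 TPM in 2 or more libraries. limma 3.58.1 (R 4.3.3) modelled log2(TPM + 1) by time point over the 8 libraries, using its variance trend and 4 residual degrees of freedom. The p-values are two-sided and Benjamini-Hochberg adjusted over all tested genes. The pseudocount makes changes of low genes smaller than their TPM ratios. An exact permutation test of 2 against 2 libraries cannot go below 0.333 and was not used. The fit was tested on simulated data.

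Members and lists were chosen with earlier results of these data known. Named genes were the 10, the listed genes, and the 5 most like DLK1 in course. The replicate number pairs the libraries because the labels call it a batch; replicate differences correlated at 0.0949 to 0.195 across genes among 34, 42 and 50 h and at -0.104 to -0.0445 with 72 h. Positions are from GENCODE 29 (GRCh38) by Ensembl identifier. Promoter windows are from RefSeq (GRCh38.p14), where 3 of the 10 genes matched. Alternatives were a pseudocount of 0.1, no filter, TMM rescaling, leaving out mitochondrial genes, compared time points alone, the replicate block, unsummed Ensembl rows, and each library left out.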

Additional observations from a re-analysis of the deposited data

How the results depend on the processing

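Of 46 tested changes of the imprinted genes, 31 kept their direction and side of the threshold in all 15 alternatives, 7 crossed the threshold in some and 8 changed sign in some. With the replicate block, 2 of the 10 genes were called at 42 h against 34 h (PEG3 in addition to PLAGL1), and the block changed 1 other call of the group, that of IGF2 at 50 h. The 4 calls at 50 h against 34 h became 2 without the filter on low values, with the compared time points alone and with Ensembl rows kept apart, and were 2 without any 1 library. The count for 72 h against 50 h was 1 to 2 over the fits with 1 library left out, with CDKN1C added without replicate 1 at 50 h. The sign changes all came from fits with 1 library left out and from changes that were not called in any of those fits. At 42 h against 34 h these were SGCE (lowest -0.15, highest 0.26), PEG10 (-0.14 to 0.21) and GRB10 (-0.059 to 0.14). They were CDKN1C (-0.66 to 0.20) at 50 h against 34 h, CDKN1C (-0.30 to 0.56) and MEST (-0.15 to 0.017) at 50 h against 42 h, MEST (-0.23 to 0.038) at 72 h against 34 h, and PEG3 (-0.014 to 0.29) at 72 h against 50 h. TMM rescaling moved the median change of all genes by at most 0.04 in size. With it the share of raised genes among all genes called went from 53.1% to 46.7% at 72 h against 34 h, from 56.3% to 49.9% at 50 h against 34 h, and from 64.3% to 50% between 42 and 50 h, where 9 genes were raised in either case. With 2 libraries a time point and no read numbers, small changes of low genes could not be resolved.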
